A study of Homo sapiens with 8 samples.

Results

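Cadherins and protocadherins are calcium-dependent adhesion proteins of the cell surface, and their transcripts were followed here on expression arrays of neuroblastoma cells with and without an shRNA against the ion channel kinase TRPM7. The genes were taken by symbol, as every named array feature whose symbol is CDH followed by a number or starts with PCDH. This gave 96 genes (168 probes) of the 31426 gene symbols that the array names (47322 probes in all). The 4 groups of 2 arrays were SH-SY5Y cells, a neuroblastic line, and SH-EP2 cells, labelled epithelial-like, each transduced by lentivirus with a nonfunctional control shRNA or with TRPM7 shRNA. Both lines are subclones of SK-N-SH, and all groups, controls included, went through the lentiviral transduction and puromycin selection that the study describes. A single TRPM7 shRNA sequence was used on the arrays, and nothing in the labels says that the 2 arrays of a group came from separate cultures, so p-values measure the spread between these arrays, which may be technical. The TRPM7 probe itself was undetected on all 8 arrays, so the arrays do not check the knockdown.

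Classical cadherins bind the same cadherin on a neighbouring cell and are tied to the actin cytoskeleton by catenins. Type I members include E-cadherin (CDH1), which holds epithelial sheets together, and N-cadherin (CDH2), the main one of neural and many mesenchymal cells. Type II members include cadherin-11 (CDH11), known from mesenchymal and neural crest cells. Protocadherins have longer outer parts, do not bind beta-catenin, and sort neurons and their processes. The clustered ones (alpha, beta and gamma) lie side by side on chromosome 5 and are switched on gene by gene from their own promoters, whereas the non-clustered delta protocadherins are spread over the genome.

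Levels are given as log2 signal after background correction and quantile normalisation, for the probe of each gene with the highest mean over the 8 arrays. A gene is called detected in a group when its detection p was under 0.05 on both arrays. "Adjusted p" is limma's two-sided p after Benjamini-Hochberg adjustment over all probes, and a gene passed when it was under 0.05. Where the dimmer group was detected on neither array, a fold is written as "at least", because it was taken against the lowest detected signal.

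Most family members were below detection in these cells. Detection on both arrays of at least 1 group was reached by 31 of the 96 genes (32.3%), against 50.5% of all named genes. Another 48 were undetected on all 8 arrays. SH-SY5Y control cells had 20 detected members and SH-SY5Y TRPM7 shRNA cells 22, compared with 13 in SH-EP2 control cells and 16 in SH-EP2 TRPM7 shRNA cells. Detection in all 4 groups was found for CDH2, CDH11, PCDH9, PCDH10, PCDH18, PCDHB9 and PCDHGB6. By subfamily, 3 of 5 type I, 6 of 13 type II, 3 of 5 delta 1, 3 of 5 delta 2, 3 of 15 alpha, 9 of 19 beta and 2 of 23 gamma genes were detected in some group. In bulk samples, fewer cells expressing a gene and less RNA per cell cannot be told apart.

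**Figure D1:**
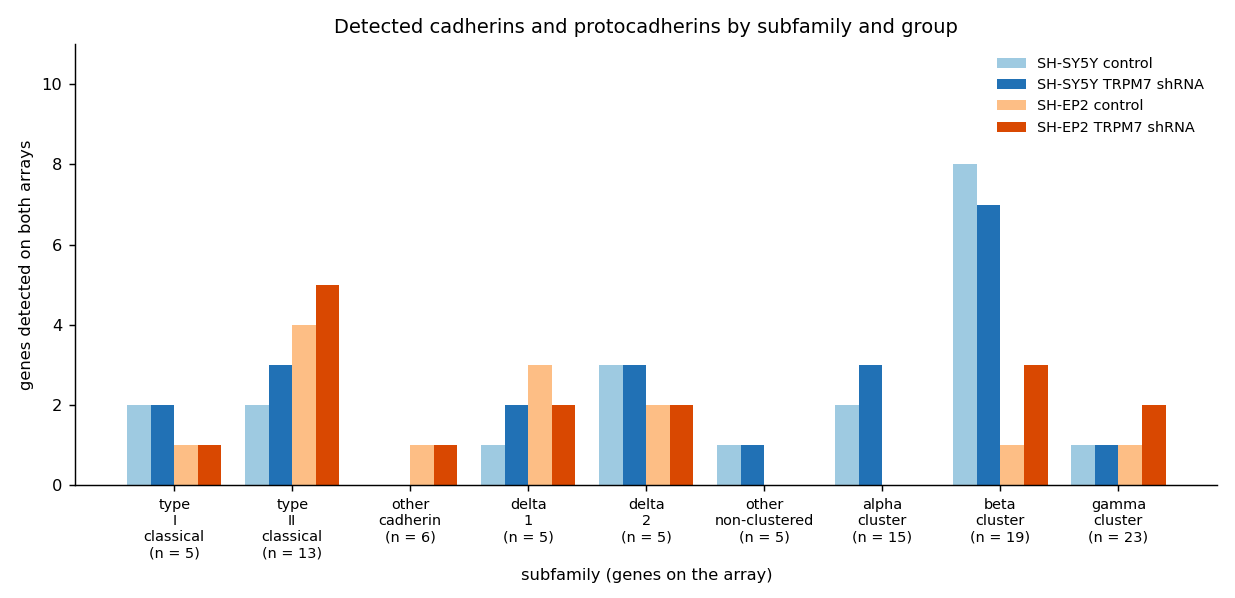
Number of cadherin and protocadherin genes detected on both arrays (y axis) in each subfamily (x axis, with the number of genes on the array), one bar per group. The beta cluster had 8 detected genes in SH-SY5Y control cells and 1 in SH-EP2 control cells, and type II cadherins had 2 and 4.

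Knockdown of TRPM7 was followed by a change in few members, and the clearest was a change of CDH11 in opposite directions in the lines. In SH-SY5Y cells 4 members rose and none fell: CDH11, CDH2, PCDH17 and PCDH7. That is 4 of 96, against 2.57% of all genes in either direction and 0.999% of all genes that rose. Among the 24 members detected in either SH-SY5Y group 4 passed, where the background was 5.51%. In SH-EP2 cells CDH11 alone passed and was lower, so 1 of 96 members changed against 3.67% of all genes in either direction and 1.85% that fell (1 of 17 detected members, background 8.17%). At an unadjusted p under 0.05 there were 19 members in SH-SY5Y (12.7% of all genes) and 8 in SH-EP2 (14% of all genes). The median log2 change over the 96 members was 0.03 in SH-SY5Y and 0.01 in SH-EP2, beside 0.00 and 0.01 over all named genes.

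The type II cadherin CDH11 had a log2 signal of 9.17 and 9.04 on the SH-SY5Y control arrays and 9.84 and 10.00 after TRPM7 shRNA. Its level rose 1.75-fold there (log2 change 0.81 ± 0.10 SE, adjusted p = 5.86e-05). On the SH-EP2 arrays it was 10.00 and 9.99 in controls and 8.76 and 8.64 after TRPM7 shRNA. Both knockdown arrays thus lay below both controls in SH-EP2, and above both controls in SH-SY5Y. The fall in SH-EP2 was 2.46-fold (log2 change -1.30 ± 0.10 SE, adjusted p = 1.52e-07). The difference of the effects, the change in SH-EP2 minus the change in SH-SY5Y, was -2.11 ± 0.14 on the log2 scale (adjusted p = 5.16e-08). The order of the lines turned with it: CDH11 was 1.85-fold higher in SH-EP2 than in SH-SY5Y control cells, whereas the SH-EP2 knockdown arrays lay below the SH-SY5Y knockdown arrays.

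N-cadherin, CDH2, was detected on every array. Its log2 signal was 12.59 and 12.63 in SH-SY5Y control cells and 12.87 and 12.95 after TRPM7 shRNA, a small rise of 1.23-fold (log2 change 0.29 ± 0.07 SE, adjusted p = 0.0295). The knockdown arrays did not overlap the controls, but the call was lost with each of the 4 SH-SY5Y arrays left out in turn (adjusted p 0.0647 to 0.196) and when arrays were blocked by replicate (adjusted p = 0.0822). In SH-EP2 the values were 11.69 and 11.77 in controls and 11.83 and 11.69 after knockdown, overlapping, with a log2 change of 0.03 ± 0.07. The difference of the effects did not pass (-0.26 ± 0.10, adjusted p = 0.315), so a difference between the lines in the response of CDH2 was not shown.

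E-cadherin, CDH1, was undetected on all 8 arrays. Its log2 signal lay between 1.87 and 2.47, and no fold is given. Another type I member, CDH4 (R-cadherin of the retina and nervous system), is named here after its values were seen. It read 3.82 and 2.00 in SH-SY5Y controls, where 1 of 2 arrays was detected, and 4.89 and 5.07 after TRPM7 shRNA, where both were. Its adjusted p was 0.0548, with a log2 change of 2.07 ± 0.54, and it was undetected in SH-EP2 cells.

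**Figure D2:**
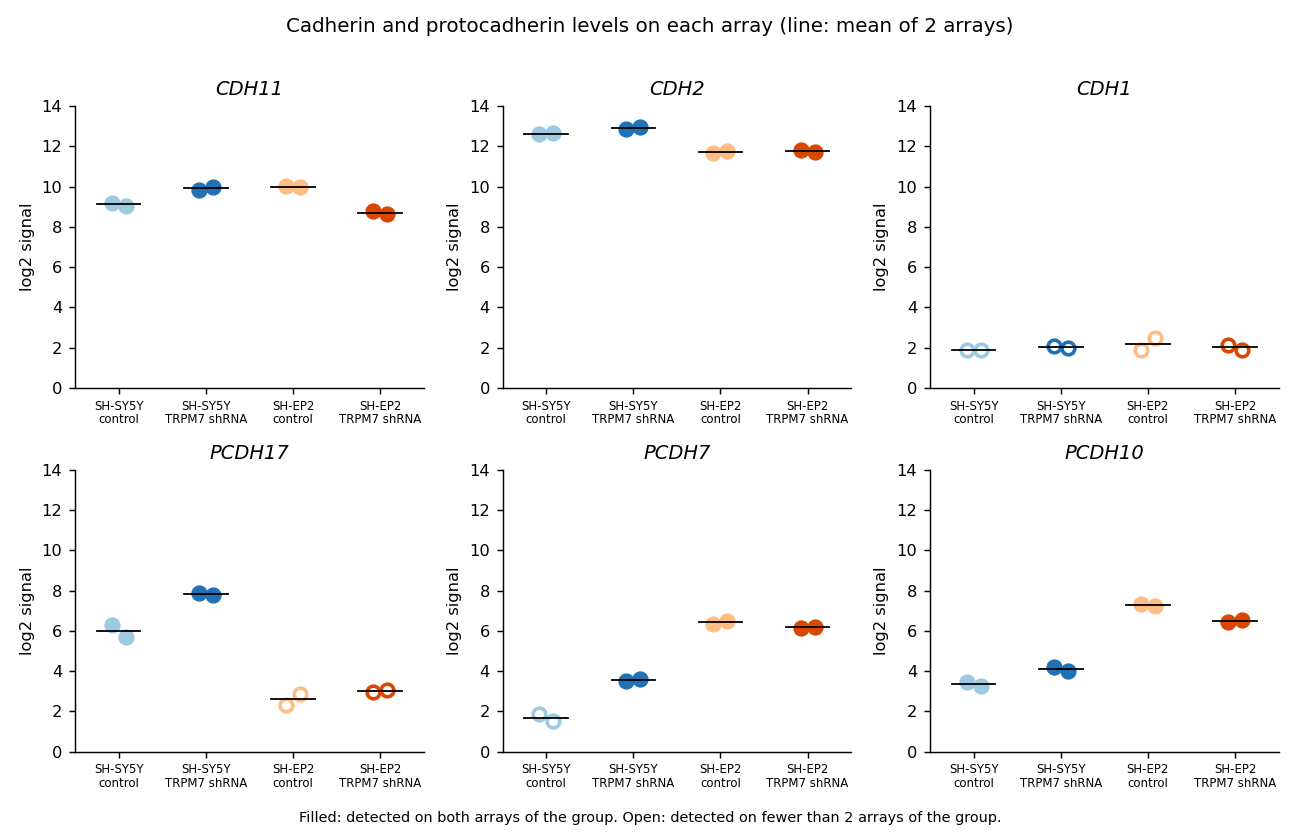
Log2 signal (y axis) of CDH11, CDH2, CDH1, PCDH17, PCDH7 and PCDH10 on each of the 2 arrays of the 4 groups (x axis), with the mean as a line; filled points are groups detected on both arrays. CDH11 moved up in SH-SY5Y (9.17 and 9.04 to 9.84 and 10.00) and down in SH-EP2 (10.00 and 9.99 to 8.76 and 8.64), and CDH1 stayed between 1.87 and 2.47 in every group.

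Non-clustered delta protocadherins made up the other members that moved. PCDH17, a delta 2 protocadherin of developing neurons, rose 3.63-fold in SH-SY5Y cells, from 6.27 and 5.68 in controls to 7.89 and 7.79 after TRPM7 shRNA (log2 change 1.86 ± 0.30 SE, adjusted p = 0.00114). It was undetected on all 4 SH-EP2 arrays (2.34 to 3.07). The difference of its effects was -1.45 ± 0.43 and did not pass (adjusted p = 0.131), although it passed with 3 other background treatments (adjusted p 3.87e-06 to 0.00613).

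PCDH7, a delta 1 protocadherin, was undetected in SH-SY5Y controls (1.85 and 1.51) and detected on both knockdown arrays (3.53 and 3.59). The rise was at least 1.32-fold, with a fitted log2 change of 1.88 ± 0.32 SE (adjusted p = 0.00166). In SH-EP2 it was detected throughout, at 6.36 and 6.51 in controls and 6.15 and 6.21 after knockdown (log2 change -0.25 ± 0.32, adjusted p = 0.842). The difference of the effects was -2.14 ± 0.45 (adjusted p = 0.0159). This call was lost with each of the 4 SH-EP2 arrays left out in turn (adjusted p 0.0828 to 0.126). The 3 other PCDH7 probes were undetected on all arrays, and with the mean over the 4 probes the rise in SH-SY5Y did not pass (log2 change 0.62, adjusted p = 0.54).

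PCDH10, a delta 2 protocadherin, read 3.43 and 3.28 in SH-SY5Y controls, 4.19 and 3.99 after TRPM7 shRNA, 7.35 and 7.24 in SH-EP2 controls and 6.46 and 6.53 after TRPM7 shRNA. Neither change passed in its own line (0.73 ± 0.24, adjusted p = 0.169, and -0.79 ± 0.24, adjusted p = 0.097), but their difference did (-1.53 ± 0.34, adjusted p = 0.0258). That call was lost without each of the 4 SH-EP2 arrays in turn (adjusted p 0.114 to 0.156), without SH-SY5Y TRPM7 shRNA replicate 1 (0.0833) and with the replicate block (0.0554). A second PCDH10 probe read 7.89 and 7.87 in SH-EP2 controls and 7.57 and 7.68 after knockdown (adjusted p = 0.822), so the probes disagree on the size of that change. By that probe the difference of the effects did not pass (-0.88 ± 0.41, adjusted p = 0.462).

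In all, 3 of 96 members (CDH11, PCDH7 and PCDH10) passed the test of the difference between the lines, each lower in SH-EP2 relative to SH-SY5Y. Over all genes 1.78% passed this test, 0.786% in that direction and 3.52% of the detected genes. All 3 calls were lost without the intensity trend (adjusted p 0.06 to 0.132) and with equal variances (0.0831 to 0.124). With the mean over probes those of PCDH7 and PCDH10 were lost (0.701 and 0.459), and with neqc that of PCDH7 (0.113). PCDH18, a delta 2 member, was detected on every array at 8.92 to 9.28, and its changes of 0.29 ± 0.10 in SH-SY5Y and -0.19 ± 0.10 in SH-EP2 did not pass (adjusted p = 0.215 and 0.485). The 20 members detected in SH-SY5Y that did not pass had fitted log2 changes between -1.16 (PCDHB6) and 2.07 (CDH4), with a median SE of 0.41. For the 16 such members in SH-EP2 they ran from -0.95 (PCDH11X) to 0.70 (PCDHB16), with a median SE of 0.31. Dim members could miss the threshold even with fitted changes over 2-fold, as CDH4 and, by its brightest probe only, PCDHB6 did. Not passing thus does not show that a member changed by less than 2-fold.

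**Figure D3:**
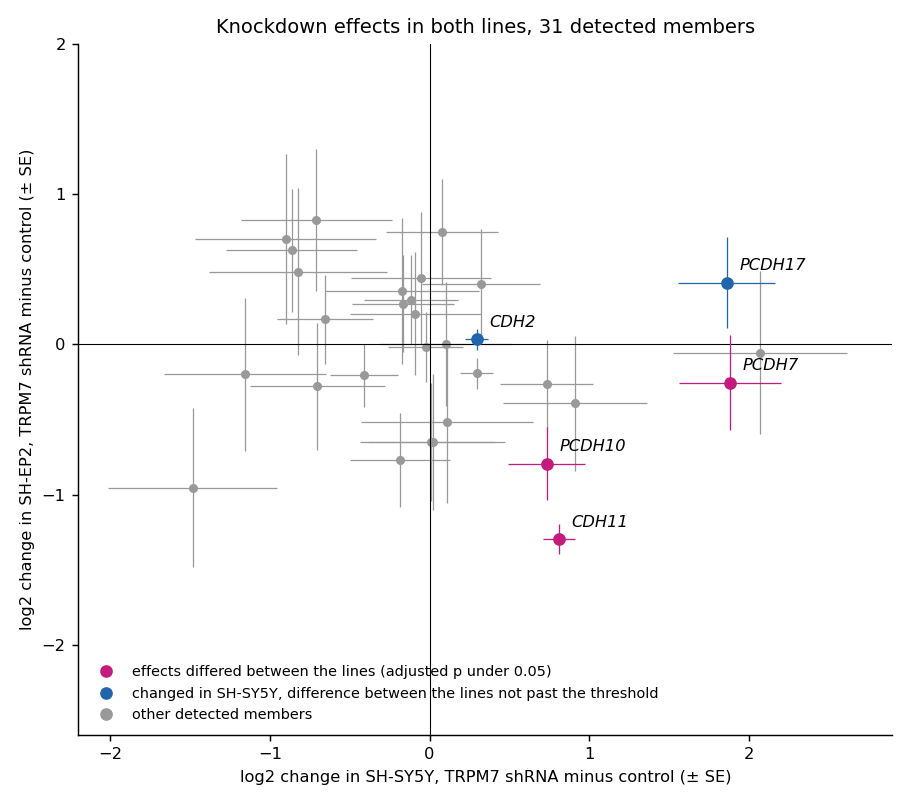
Log2 change after TRPM7 shRNA in SH-SY5Y (x axis) and SH-EP2 cells (y axis) for the 31 members detected in some group, each with its SE in both directions; fitted values are drawn also for a line in which a member was undetected. CDH11 (0.81 and -1.30), PCDH10 (0.73 and -0.79) and PCDH7 (1.88 and -0.25) are the members whose effects differed between the lines by the test of the difference.

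Clustered protocadherins were detected mainly on the SH-SY5Y arrays, and none passed the test after knockdown in either line. The beta cluster, whose coding genes are single exons that each carry a whole protein, had 8 detected genes in SH-SY5Y control cells. These include PCDHB17 and PCDHB19P, whose current RefSeq symbols (PCDHB17P and PCDHB19P) mark pseudogenes. The 19 beta genes counted on the array, and the 9 that differed between the control lines, include such pseudogenes too. After TRPM7 shRNA the fitted log2 changes of the 8 detected genes lay between -1.16 (PCDHB6) and 0.32 (PCDHB3), 4 up and 4 down, and the lowest adjusted p was 0.384. PCDHB6 read 4.86 and 4.01 in controls and 2.96 and 3.59 after knockdown, without overlap (unadjusted p = 0.0352). Its second probe, detected on 1 array of each SH-SY5Y group, went the other way, from 3.18 and 2.21 to 3.71 and 2.88. That change did not pass either (log2 change 0.60, adjusted p = 0.744), so a fall of PCDHB6 was not shown. PCDHB4 read 7.10 and 7.38 in controls and 7.05 and 7.10 after knockdown. Alpha and gamma genes share their last exons within a cluster, and the probe sequences were not used here, so values of single alpha and gamma genes are uncertain where a probe lies in the shared part. Binding of a probe to RNA of another beta gene could not be checked either. In SH-SY5Y controls the second probes of PCDHB2, PCDHB9, PCDHB10 and PCDHB17 were undetected, while that of PCDHB3 was detected on both arrays.

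The stretches upstream of beta cluster genes are shown because the detected and the undetected genes of this cluster can be set side by side. The RefSeq promoter table of GRCh38.p14 held a window for 73 members by current symbol, 14 of them beta genes. Searching the 250 bases before each start on both strands, the letters GGTGGCGCT (reverse complement AGCGCCACC), chosen after these sequences were read, occurred in 12 of the 14 beta windows, in 0 of 13 alpha windows, in 0 of 25 gamma windows and in 0.41% of all 35116 windows. Their end holds CGCT, the core letters of the conserved element known from clustered protocadherin promoters, which alone is found in 64.8% of all windows. Capitals mark the 9-letter match in the 120 bases that end at the last base before the start, on the plus strand. PCDHB2 (chr5:141094495-141094614), PCDHB3 (chr5:141100353-141100472), PCDHB4 (chr5:141121698-141121817) and PCDHB10 (chr5:141192233-141192352) were detected in SH-SY5Y, and PCDHB5 (chr5:141135086-141135205) and PCDHB12 (chr5:141208599-141208718) were undetected on all arrays.
PCDHB2: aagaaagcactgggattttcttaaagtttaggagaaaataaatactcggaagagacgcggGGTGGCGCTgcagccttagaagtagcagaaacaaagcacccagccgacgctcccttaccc
PCDHB3: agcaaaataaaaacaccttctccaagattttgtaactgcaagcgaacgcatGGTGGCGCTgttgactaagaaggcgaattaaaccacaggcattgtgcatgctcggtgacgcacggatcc
PCDHB4: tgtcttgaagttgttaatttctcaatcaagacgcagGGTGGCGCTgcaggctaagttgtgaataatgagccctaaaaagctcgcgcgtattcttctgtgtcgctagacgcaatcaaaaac
PCDHB10: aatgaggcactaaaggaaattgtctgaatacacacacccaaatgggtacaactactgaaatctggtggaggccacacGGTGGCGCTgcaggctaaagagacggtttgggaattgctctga
PCDHB5: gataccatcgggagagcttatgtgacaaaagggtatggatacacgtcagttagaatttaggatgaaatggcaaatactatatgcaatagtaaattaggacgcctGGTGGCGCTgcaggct
PCDHB12: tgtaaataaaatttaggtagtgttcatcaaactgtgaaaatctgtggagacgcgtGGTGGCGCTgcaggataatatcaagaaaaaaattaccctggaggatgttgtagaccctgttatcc
The match began 16 to 84 bases before the start. Of the 12 genes with it, 5 were detected on both SH-SY5Y control arrays, 2 on 1 array and 5 on neither, so these letters stood before detected and undetected beta genes alike. The 2 beta genes whose windows lacked it, PCDHB1 and PCDHB8, were undetected on all arrays. PCDHB6, PCDHB17 and PCDHB19P, detected in SH-SY5Y controls, had no window. A link between these letters and detection was not tested. The E-box CAGGTG (reverse complement CACCTG), bound by factors of the SNAI and ZEB families, was in none of the windows of CDH2, PCDH7 and PCDH17. It was in 9 of the 94 windows of members and in 17.5% of all windows. CDH1, CDH11 and PCDH10 had no window, and binding of these factors was not tested.

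The control cells of the lines differed in more members than the knockdown changed. Between SH-EP2 and SH-SY5Y controls 23 of 96 members passed, against 30.1% of all genes. Of these, 7 were higher in SH-EP2 (background 14.2%) and 16 higher in SH-SY5Y (background 15.9%). Among the 26 members detected in either control group 21 passed, against 61.8% of all detected genes. The share of members that differed (24%) was thus under that of all genes, and the share of detected members (80.8%) above that of all detected genes. Detection itself was split: 9 members were detected on both SH-SY5Y control arrays and on no SH-EP2 control array, 5 the other way round, 7 on both arrays of both groups and 70 on both arrays of neither. The other 5 were detected on both arrays of 1 control group and on 1 array of the other.

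Cadherins and one delta 1 protocadherin made up the genes seen in SH-EP2 and on no SH-SY5Y control array. CDH13, T-cadherin, which is held in the membrane by a lipid anchor and has no tail for catenins, read 7.77 and 7.85 in SH-EP2 controls and 1.78 and 1.69 in SH-SY5Y controls, at least 25.1-fold higher (adjusted p = 1.43e-12). The type II neural cadherins followed: CDH12 at 8.04 and 7.80 against 1.95 and 2.81 (at least 27.2-fold, adjusted p = 7.76e-12), CDH18 at 7.75 and 7.74 against 2.44 and 2.23 (at least 24-fold, adjusted p = 8.09e-12), and CDH10 at 5.39 and 5.57 against 1.88 and 1.84 (at least 5.0-fold, adjusted p = 5.47e-07). In each, the SH-EP2 arrays lay clear of the SH-SY5Y arrays. RefSeq lists CDH18 and CDH12 as neighbours on chromosome 5, with CDH10 after 1 further protein-coding gene. The next ones along, CDH9 and CDH6, were not detected in SH-EP2 cells. After TRPM7 shRNA, CDH12, CDH18, CDH10 and CDH13 kept their detection on both SH-EP2 arrays and did not pass the test. PCDH7 was at least 9.70-fold higher in SH-EP2 controls (adjusted p = 2.28e-10), and PCDH10, measured in both lines, 15.3-fold higher (adjusted p = 6.43e-11). The other PCDH7 probes were undetected on all arrays. A second PCDH10 probe was also higher in SH-EP2 (adjusted p = 4.01e-12), and the remaining one was undetected in both control groups. The sizes of the line differences depend on the background correction: without it the fitted log2 difference was 1.71 in place of 6.07 for CDH13 and 0.59 in place of 3.62 for CDH10.

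Higher in SH-SY5Y were N-cadherin, the muscle cadherin CDH15 (at least 1.61-fold, adjusted p = 0.0402), the non-clustered PCDH17 and PCDH20, and the clustered genes. CDH2 was 1.84-fold higher (adjusted p = 3.26e-09), with both groups detected. PCDH17 was at least 6.72-fold higher (adjusted p = 2.03e-08). PCDH20, a further non-clustered protocadherin, read 6.19 and 5.59 in SH-SY5Y controls and 1.89 and 2.15 in SH-EP2 controls, at least 6.33-fold higher (adjusted p = 3.2e-07). Every clustered member that passed (9 beta, 2 alpha and 1 gamma) was higher in SH-SY5Y by its brightest probe. The gamma gene, PCDHGB1, was detected on only 1 SH-SY5Y control array (at least 1.05-fold, adjusted p = 0.018). PCDHGC3 did not pass by its brightest probe. Its other probes, near background, were higher in SH-EP2 (log2 difference 1.75 and 1.15, adjusted p = 0.00386 and 0.0484). PCDHB4 led the clustered members, at 7.10 and 7.38 against 1.62 and 1.80, at least 16.1-fold higher (adjusted p = 2.5e-11). PCDHB2 was at least 5.42-fold higher (adjusted p = 1.5e-06). PCDHB3 and PCDHB10, each detected on 1 of 2 SH-EP2 control arrays, were 14.5-fold (adjusted p = 5e-08) and 8.25-fold higher (adjusted p = 1.85e-05). PCDHB9 was measured in both lines, at 7.71 and 7.62 against 5.42 and 4.73, a 6.02-fold difference (adjusted p = 2.11e-08). The second probes of PCDHB2, PCDHB9 and PCDHB10 were undetected in both control groups and did not pass (adjusted p 0.573 to 0.977). The second PCDHB3 probe was also higher in SH-SY5Y (adjusted p = 0.0035). The gamma gene PCDHGB6 ran the other way without passing, at 6.47 and 6.44 in SH-SY5Y and 7.07 and 6.87 in SH-EP2 controls (adjusted p = 0.0888). PCDHB1 is counted among the 9 although it was undetected on all arrays.

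**Figure D4:**
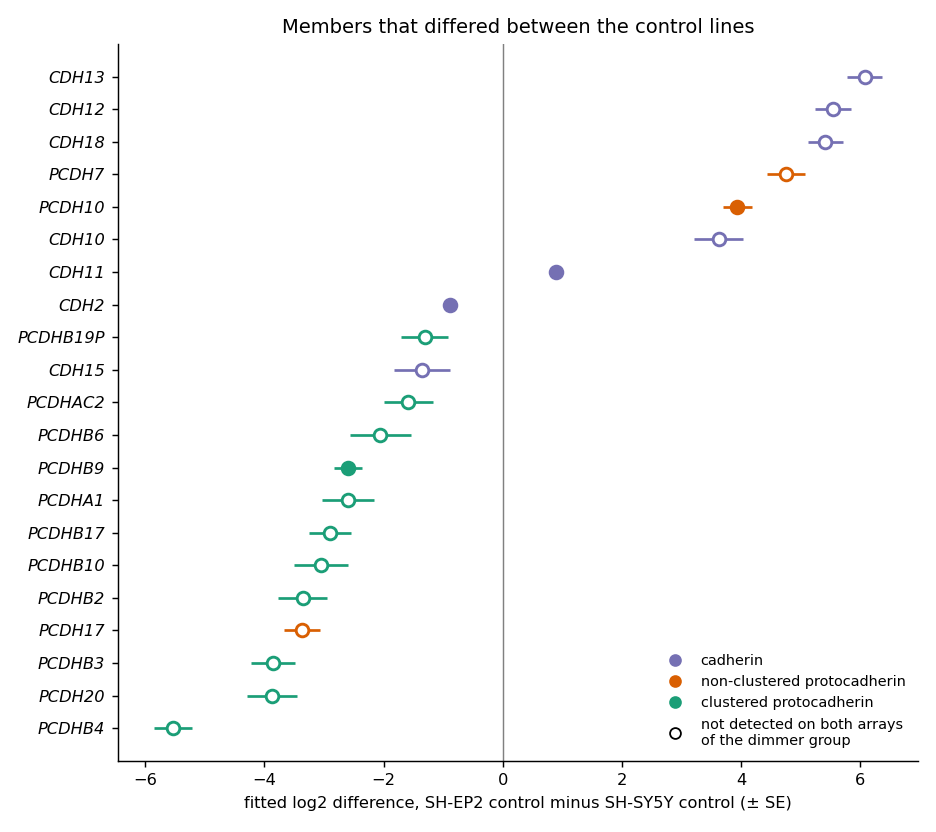
Fitted log2 difference between SH-EP2 and SH-SY5Y control cells (x axis, with SE) for the 21 members that passed and were detected in either control group (y axis), coloured by kind; open points had a dimmer group not detected on both arrays. All clustered protocadherins drawn lie on the SH-SY5Y side, from the pseudogene PCDHB19P (-1.31) to PCDHB4 (-5.53), and CDH13 (6.07), CDH12 (5.54) and CDH18 (5.41) on the SH-EP2 side.

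The partners and regulators of these proteins were followed in fixed lists. Over all genes 2.57% passed in SH-SY5Y and 3.67% in SH-EP2, or 5.51% and 8.17% of the detected genes. In lists this short, 0 or 1 call is thus no result about the list. Of 13 catenins and junction partners, 0 changed in SH-SY5Y and 1 in SH-EP2: JUP, plakoglobin, which links cadherins of adherens junctions and desmosomes to the cytoskeleton, rose 1.91-fold, from 5.91 and 5.83 to 6.72 and 6.90 (adjusted p = 0.000669). With the mean over its probes that rise did not pass (adjusted p = 0.589). The difference of the JUP effects between the lines passed (1.06, adjusted p = 0.00913), but not with its probes averaged (0.61). Beta-catenin, CTNNB1, stayed between 7.13 and 7.67 on all arrays. Of 19 other members of the superfamily (FAT, DCHS, CELSR, desmosomal cadherins and calsyntenins), 1 rose in SH-EP2, the desmosomal cadherin DSG3, undetected in controls (2.13 and 2.48) and detected at 4.0 and 4.24 after knockdown, at least 1.85-fold higher (adjusted p = 0.0246). Leaving out each SH-EP2 array in turn ended that call (adjusted p 0.0628 to 0.194). None of 8 shedding and cleavage genes (ADAM10 and gamma-secretase subunits among them) changed in either line.

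Of 10 intracellular partners of protocadherins, none changed in SH-SY5Y and 2 did in SH-EP2 (5.51% and 8.17% of all detected genes). FYN, a Src-family kinase, fell 1.85-fold, from 7.81 and 8.01 to 7.23 and 6.82 (adjusted p = 0.00163), though not without SH-EP2 control replicate 2 (0.053) or SH-EP2 TRPM7 shRNA replicate 2 (0.0661). CYFIP2, a subunit of the WAVE complex that drives actin branching, rose 1.59-fold, from 8.05 and 8.15 to 8.75 and 8.78 (adjusted p = 0.00176), but not with its probes averaged (adjusted p = 0.426). Of 11 regulators of the protocadherin cluster, such as CTCF and cohesin, 1 rose in SH-EP2 (WAPAL, the cohesin release factor, 2.82 and 3.60 to 5.13 and 4.61, adjusted p = 0.0437). That call was lost in 12 of 19 alternatives, among them neqc, median scaling, the replicate block (0.0501) and each SH-EP2 array left out in turn (adjusted p 0.0501 to 0.381 over the 12). Between the control lines 8 of these 11 were lower in SH-EP2 and none higher, where 32.7% of all detected genes were lower. They include RAD21 at 8.84 and 8.83 against 10.11 and 10.05 (adjusted p = 9.78e-09) and the histone methyltransferase SETDB1 at 6.80 and 7.04 against 8.37 and 8.69 (adjusted p = 5.6e-08).

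Of 7 repressors of E-cadherin, SNAI2 (Slug) fell in both lines while CDH1 stayed undetected. SNAI2 read 7.30 and 7.16 in SH-SY5Y controls and 4.16 and 4.76 after TRPM7 shRNA, a fall of 6.81-fold (adjusted p = 1.24e-08). In SH-EP2 it read 9.40 and 9.24 in controls and 7.92 and 7.93 after knockdown, 2.63-fold lower (adjusted p = 6.68e-05). The difference of the SNAI2 effects passed (1.38, adjusted p = 0.00425), but its size depended on the background correction. TWIST1, a mesodermal and neural crest factor, fell in SH-EP2 by 1.29-fold, from 10.43 and 10.42 to 10.10 and 10.01 (adjusted p = 0.0117), a call that ended without either SH-EP2 control array or without SH-EP2 TRPM7 shRNA replicate 2 (adjusted p 0.102 to 0.183). SNAI1 was undetected on all arrays.

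The cell lines were checked against marker genes. SH-SY5Y controls had 11 of 12 noradrenergic markers detected and SH-EP2 controls 5. The summed level of the list, the log2 of the sum of its linear signals, was 15.17 to 15.20 against 8.51 to 8.57. Such a sum weighs the brightest markers most. Tyrosine hydroxylase, TH, was undetected on all arrays. All 10 mesenchymal markers were detected in SH-EP2 controls and 7 in SH-SY5Y controls, at summed levels of 16.07 to 16.13 and 14.55. SH-EP2 cells are labelled epithelial-like, yet none of 7 epithelial markers was detected on both arrays of either control group. After TRPM7 shRNA, EPCAM was detected on both SH-SY5Y arrays and KRT19 on both SH-EP2 arrays, without passing the test, and the epithelial summed level was 5.58 to 5.96 in SH-SY5Y (controls 5.36 to 5.59) and 5.80 to 5.92 in SH-EP2 (controls 5.40 to 5.85). Of 5 endothelial markers 2 were detected in SH-EP2 controls and 0 in SH-SY5Y controls, and of 5 leukocyte markers 3 in each. In SH-EP2 CD14 fell after knockdown (8.06 and 7.91 to 6.09 and 5.82, adjusted p = 3.22e-05). Markers KDR, CLDN5 and CD3E were undetected on all arrays. The noradrenergic sum fell in SH-SY5Y to 14.68 to 14.79, with 3 markers lower, as did the mesenchymal sum there (14.20 to 14.26, with 4 lower and 1 higher). In SH-EP2 the mesenchymal sum fell to 15.97 on the lower array, with 3 lower and 1 higher. The noradrenergic sum there was 8.50 to 8.73 after knockdown, with 2 lower and 1 higher. Of all detected genes, 3.4% were lower and 2.11% higher in SH-SY5Y, and 4.13% lower and 4.04% higher in SH-EP2. The part of these marker shifts in the cadherin changes was not tested.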

How the data were processed

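RNA of 2 neuroblastoma lines, each with control or TRPM7 shRNA, was hybridised to 8 Illumina HumanHT-12 v4 arrays. The authors extracted bead signals in GenomeStudio 2011.1 and deposited signal intensity values labelled as not normalized, on a linear scale, for 47322 probes. The deposited detection p-values compare each probe with the negative controls of its array. The genome build behind the probes is not given in the sources used here. The study normalised by Robust-Multi-Array and names no test.

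Intensities were corrected here with the RMA background model, quantile normalised across the 8 arrays and log2 transformed, without filtering. limma 3.58.1 (R 4.3.3) was fitted to 4 groups, eBayes with an intensity trend, with contrasts for TRPM7 shRNA within each line, their difference, and the control lines. Tests were two-sided, Benjamini-Hochberg adjusted over all probes and called at 0.05. The script was tested on simulated data. Detected probes were 40.8% to 44.2% per array (detection p under 0.05), replicate arrays correlated at 0.981 to 0.985, and the precision is limited by having 2 arrays per group.

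Members were matched by symbol. Of 96, 91 carry a current RefSeq symbol and 5 an older one. The values of a Y-linked member are not reported. Members and lists were chosen with earlier results of these data known. Named are CDH1, CDH2 and CDH11, members called and detected in a knockdown contrast or the difference, the 12 called members with the largest fitted line difference detected in the brighter group, and listed genes called in a knockdown contrast. Groups follow the line and shRNA that the labels name. Alternatives were other background corrections and scalings, a detection filter, other variance models, each line alone, a replicate block, the mean over probes and leaving out each array. Promoters are from RefSeq.

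Over the 14577 probes detected on all arrays, same-numbered arrays of control and knockdown did not deviate together (r = -0.111 in SH-SY5Y and -0.00447 in SH-EP2), so the numbers were not used to pair samples.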

Additional observations from a re-analysis of the deposited data

Results flagged for a closer look

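In 3 members the effect of TRPM7 shRNA differed between the lines by the interaction test. The change in SH-EP2 minus the change in SH-SY5Y was -2.11 on the log2 scale for CDH11 (adjusted p = 5.16e-08), -2.14 for PCDH7 (adjusted p = 0.0159) and -1.53 for PCDH10 (adjusted p = 0.0258). CDH11 moved in opposite directions, with both knockdown arrays beyond both control arrays in each line. For PCDH7 the SH-SY5Y controls were undetected, and the PCDH10 change passed in neither line in the fit over all 8 arrays (with SH-EP2 fitted by itself, adjusted p = 0.00104).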

How the results depend on the processing

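The 12 named differences between the control lines kept their direction and their call under every alternative run, but not their size: with no background correction the fitted log2 difference shrank from 6.07 to 1.71 for CDH13, from 3.62 to 0.59 for CDH10, from -5.53 to -1.37 for PCDHB4 and from -3.87 to -0.70 for PCDH20. The rise in SH-SY5Y went from 1.86 to 0.95 for PCDH17 and from 1.88 to 0.28 for PCDH7 there, and the CDH11 changes from 0.81 to 0.70 and from -1.30 to -1.10. The SH-SY5Y count of 4 members was 1 without the intensity trend, 0 with equal variances and 2 with probes averaged per gene. The SH-EP2 count of 1 was 0 without the trend and 2 with neqc, with normexp, with no background correction and with each line alone, where PCDH10 joined CDH11. The count of 3 for the difference was 0 without the trend, 0 with equal variances and 1 with the mean over probes. Leaving out each array gave 3 to 4 members in SH-SY5Y, 1 to 2 in SH-EP2, 1 to 4 for the difference (1, CDH11, without each SH-EP2 array in turn) and 19 to 24 between the control lines (19 without SH-SY5Y control replicate 1).

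CDH11 kept its calls under all alternatives except no trend (adjusted p 0.194 in SH-SY5Y, 0.053 in SH-EP2 and 0.06 for the difference) and equal variances (0.105 in SH-SY5Y and 0.0831 for the difference). PCDH17 in SH-SY5Y was lost under the same settings (0.105 and 0.177), and PCDH7 with neqc (0.0535), equal variances (0.0663), each line alone (0.0531) and the mean over probes. CDH2 in SH-SY5Y was lost without the trend (0.627) and with equal variances (0.289), neqc (0.0565), each line alone (0.0548), the mean over probes (0.0537) and the replicate block (0.0822). SNAI2 was lost with equal variances (0.0747 in SH-SY5Y and 0.152 in SH-EP2) and, in SH-EP2, without the trend (0.0995). The calls in SH-EP2 were also lost without the trend and with equal variances for JUP (0.126 and 0.102), FYN (0.188 and 0.186), CYFIP2 (0.248 and 0.16), DSG3 (0.059 and 0.118), TWIST1 (0.484 and 0.162) and WAPAL (0.262 and 0.381). The SNAI2 difference between the lines passed in the main fit (1.38, adjusted p = 0.00425). It was lost with neqc (0.0727), normexp (0.907), median scaling (0.0648), no trend (0.29), equal variances (0.341) and the mean over probes (0.0794). With no background correction it turned to -0.12, and the cause was not tested. With the replicate block the counts were 3 in SH-SY5Y, 1 in SH-EP2, 2 for the difference and 22 between controls; with a crossed block in SH-SY5Y, chosen after seeing the data, they were 5, 1, 3 and 24. At a detection p under 0.01, also chosen after seeing the data, 25 members in place of 31 were detected in some group. Signals close to background limit the 48 undetected members, whose levels are not known.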
